A study of Mus musculus with 9 samples.

Results

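The 8 genes described here encode transcriptional regulators of the B cell to plasma cell (PC) transition: Prdm1, which encodes Blimp1, Irf4, Ikzf1 (Ikaros), Ikzf3 (Aiolos), Tcf3 (E2A), Tcf4 (E2-2), Id2 and Batf. They were chosen by name. All 8 were found among the 29995 genes of the deposited table without immunoglobulin (Ig) genes, and all 8 were among the 12892 genes tested, which reached 1 TPM (a transcript level that takes account of length and depth) in 3 or more libraries. RNA-seq libraries were made from splenic cells of 12-week-old B6.Blimp1GFP/+ mice, which carry a green fluorescent protein (GFP) reporter in 1 Prdm1 allele, killed on day 4 after 50 µg of NP-LPS, nitrophenyl (NP) coupled to lipopolysaccharide, given into the peritoneum. Every library came from an immunized heterozygous reporter mouse, the naive B cells included, and there were no unimmunized or wild-type animals. Naive B cells were IgDhigh, B220+ and NP-. Activated, NP-specific B cells were IgD-, B220+, NP+, CD138- and GFP(Blimp1)-. PCs were IgD-, NP+, CD138+ and GFP(Blimp1)+ with or without B220. Cells bearing CD4, CD8a, Ter-119 or F4-80 were gated out, and each group held 3 libraries, described as 3 mice.

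Blimp1 is a zinc finger repressor that shuts down the B cell program and is required for antibody-secreting PCs, and IRF4 is an interferon regulatory factor that activates Prdm1 and binds DNA weakly unless it pairs with Ets factors such as PU.1 and Spi-B or with AP-1 factors such as BATF. Ikaros and Aiolos are zinc finger proteins that recruit the NuRD chromatin remodeler. E2A and E2-2 are E proteins, basic helix-loop-helix factors that bind E-box sequences, and Id proteins such as Id2 pair with E proteins and keep them off DNA.

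Sequences before a RefSeq transcription start are shown for the 4 members with the largest changes in any comparison. They are shown because the motifs bound by the regulators themselves can be read in them. Each sequence is the 250 bases before the RefSeq start in build GRCm38.p6, written 5′ to 3′ on the strand of the gene. RefSeq entries were at hand for 6 of the 8 members. The Prdm1 and Id2 windows lie inside the GENCODE vM21 gene spans given below, so they are not the flank of the whole gene. The Irf4 and Batf windows reach past the GENCODE gene start. Capitals mark the E-box (CANNTG, bound by E proteins), the AP-1 motif (TGANTCA) and the Blimp1 core (GAAAG), each searched on both strands. Prdm1 is at chr10:44458749-44458998 on the minus strand, Irf4 at chr13:30748983-30749232 on the plus strand, Id2 at chr12:25096093-25096342 on the minus strand and Batf at chr12:85686470-85686719 on the plus strand.
Prdm1: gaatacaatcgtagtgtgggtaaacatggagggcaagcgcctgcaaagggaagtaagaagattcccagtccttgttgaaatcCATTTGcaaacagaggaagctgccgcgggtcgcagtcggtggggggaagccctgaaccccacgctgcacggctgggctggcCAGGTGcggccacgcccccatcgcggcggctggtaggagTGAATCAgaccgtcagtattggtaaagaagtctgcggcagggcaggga
Irf4: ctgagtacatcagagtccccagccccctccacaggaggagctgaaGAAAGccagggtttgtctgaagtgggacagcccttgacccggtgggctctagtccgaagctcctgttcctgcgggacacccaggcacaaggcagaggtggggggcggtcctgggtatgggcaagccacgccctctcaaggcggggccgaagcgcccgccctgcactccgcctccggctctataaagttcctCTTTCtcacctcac
Id2: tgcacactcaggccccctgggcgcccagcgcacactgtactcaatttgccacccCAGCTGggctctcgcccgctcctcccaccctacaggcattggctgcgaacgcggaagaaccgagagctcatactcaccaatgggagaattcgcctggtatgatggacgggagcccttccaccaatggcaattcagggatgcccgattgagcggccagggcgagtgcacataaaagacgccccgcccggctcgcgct
Batf: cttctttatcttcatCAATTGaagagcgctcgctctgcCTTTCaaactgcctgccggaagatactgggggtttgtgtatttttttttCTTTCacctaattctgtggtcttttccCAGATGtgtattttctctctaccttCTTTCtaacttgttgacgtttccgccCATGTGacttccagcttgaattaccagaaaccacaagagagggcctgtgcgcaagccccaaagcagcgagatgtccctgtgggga

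The Prdm1 window held 2 E-boxes, from -168 to -163 and from -87 to -82 counted from the start site, and 1 AP-1 motif from -48 to -42. The AP-1 motif was present in 6.75% of 32851 RefSeq windows of the same length, whereas the E-box was present in 66.2% of them. Prdm1 also held 3 copies of the Ikaros core (GGGAA, not capitalized, in 56.2% of windows). The Irf4 window held no E-box and 2 Blimp1 cores, a motif found in 51.5% of windows. The Id2 window held 1 E-box, from -196 to -191. The Batf window held 3 E-boxes and 3 Blimp1 cores, and 1 Ikaros core whose last base is also the first base of an E-box. Neither the interferon-stimulated response element (ISRE, the letters GAAA, any 2 bases and GAAA) nor the Ets-IRF composite element (EICE, GGAA, any 2 bases and GAAA) was found in these windows; they were present in 2.98% and 2.3% of all windows. These matches describe letters only and no binding was measured.

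Libraries were checked before the genes were compared. They held 28500000 to 31700000 estimated reads in naive B cells, 34900000 to 38600000 in activated B cells and 20200000 to 22100000 in PCs, Ig genes left out. The B cell markers Ms4a1, Cd79a, Cd79b and Cd22 summed to 7900 to 8240 TPM in naive B cells. This sum was 5820 to 6410 in activated B cells and 1460 to 1530 in PCs. Ms4a1 went the other way in activated B cells, at 1114 to 1388 TPM against 766 to 967 in naive B cells. The PC markers Sdc1, Tnfrsf17, Xbp1, Slamf7 and Cd28 summed to 172 to 191 TPM in naive B cells. Their sum was 257 to 290 in activated B cells and 5460 to 6690 in PCs, where Xbp1 held 3717 to 4564 TPM. Sdc1, the gene of CD138, was lower in activated B cells (0.093 to 1.48 TPM) than in naive B cells (4.33 to 8.48 TPM). PC replicate 3 stood apart: 5 liver transcripts summed to 4550 TPM, with albumin (Alb) at 660.5 TPM, whereas Alb was below 0.5 TPM in the other 8 libraries. Several values that rest on this library are given with and without it.

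**Figure D1:**
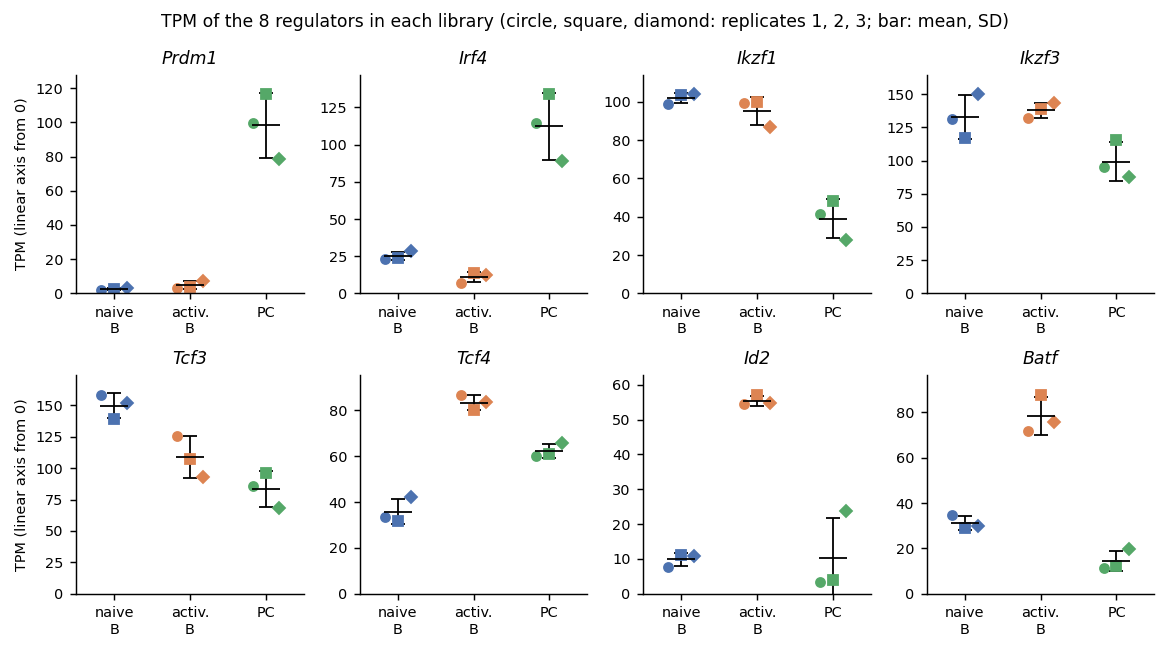
TPM (linear axes from 0) of the 8 regulators in each of the 9 libraries, by group; circles, squares and diamonds are replicates 1, 2 and 3, and bars give the mean and SD of 3 libraries. Prdm1 and Irf4 were highest in PCs, Tcf4, Id2 and Batf were highest in activated B cells, and the Id2 value of 23.7 in PC replicate 3 stands above the other PC libraries.

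Of the 8 regulators, 3 were higher and 1 was lower in activated B cells than in naive B cells at a limma adjusted p under 0.05 and a fold change over 2, where 8.13% of all tested genes were higher and 10.4% were lower. In PCs against naive B cells 2 were higher and 2 were lower, against 11.4% and 26.3% of all genes. In PCs against activated B cells 2 were higher and 3 were lower, against 9.93% and 22.3% of all genes. The 2 comparisons with naive B cells share those libraries, and the 2 comparisons of PCs share the PC libraries. Over all genes tested, the median log2 change was -0.16, -0.47 and -0.30 (-0.16, -1.40 and -1.27 with the Ig genes kept), and changes below are to be read beside these shifts. In bulk RNA, fewer cells that express a gene and less RNA per cell cannot be told apart.

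**Figure D2:**
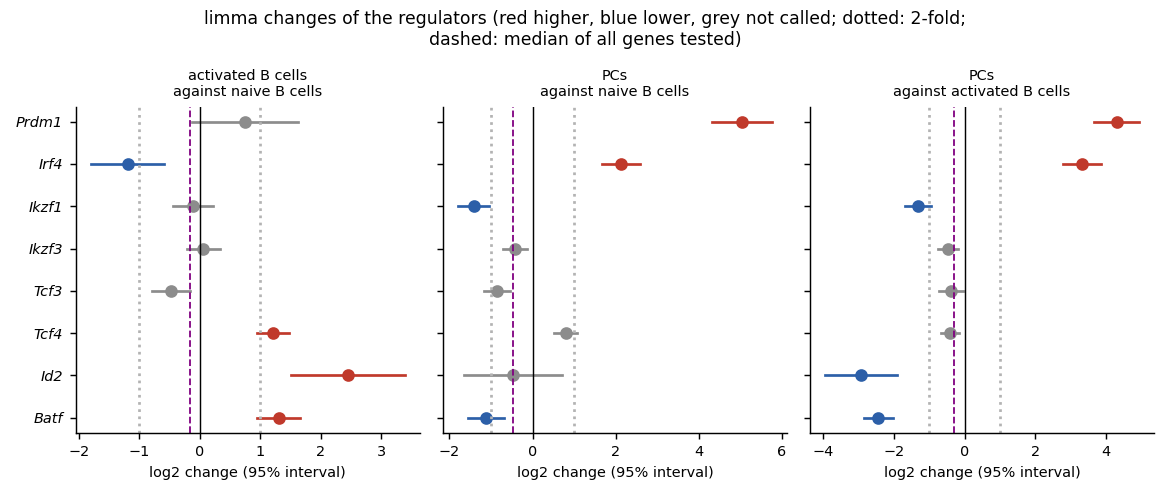
Log2 change of each regulator with its 95% interval from limma in the 3 comparisons; red and blue points passed both thresholds as higher and lower, grey points did not, dotted lines mark 2-fold and dashed lines the median of all tested genes. Irf4 lay below 0 at -1.20 in activated B cells and above 0 in PCs, and Id2 and Batf lay above 0 in activated B cells and below 0 in PCs against activated B cells.

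Prdm1, on chromosome 10 from 44437177 to 44528501 (minus strand, GRCm38, GENCODE vM21), had TPM values of 1.97, 2.30 and 3.24 in naive B cells, 3.09, 3.94 and 7.24 in activated B cells and 99.8, 116 and 78.4 in PCs. Every PC library lay above all B cell libraries, while the ranges of the B cell groups overlapped. The sort used Blimp1-GFP to separate PCs from activated B cells, so this difference was set by the gate and is no finding: the log2 change was 4.29 ± 0.28 (SE) against activated B cells and 5.04 ± 0.32 against naive B cells. Activated B cells were gated as GFP- and naive B cells were not gated on GFP; between these groups the log2 change was 0.74 ± 0.40 with a 95% interval from -0.13 to 1.62 (limma adjusted p = 0.153). The highest activated B cell library, replicate 3 at 7.24 TPM, was below the lowest PC library at 78.4 TPM.

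Genes that Blimp1 is known to repress were low in PCs, where the 6 reported here fell against both naive and activated B cells, beside 26.3% and 22.3% of all tested genes. The counts were the same when the Ig genes were kept, although 7943 and 7355 of all 12324 genes then fell, and under median-of-ratios scaling and quantile normalization. The median log2 change of the 6 was -6.37 and -5.52, beside -0.47 and -0.30 for all tested genes. Without PC replicate 3 the medians of the 6 were -6.87 and -5.99. Pax5, which holds B cell identity, had TPM of 81.4, 90.4 and 74.0 in naive B cells, 42.9, 56.8 and 51.7 in activated B cells and 1.18, 0.219 and 0.665 in PCs. Ciita, the activator of MHC class II genes, was at 186, 197 and 194 TPM in naive B cells, 88.3, 79.5 and 78.1 in activated B cells and 0.424, 0.455 and 0.747 in PCs. Ciita had already fallen by 1.24 on the log2 scale in activated B cells (limma adjusted p = 5.1e-06). Myc was the least changed of the 6 in PCs, at -2.49 against naive B cells and -3.11 against activated B cells.

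Bcl6 and Bach2, which repress Prdm1 in B cells, fell with Pax5 in PCs. Bcl6 was at 44.4, 41.2 and 50.1 TPM in naive B cells, 17.4, 14.7 and 18.6 in activated B cells and 0.551, 0.228 and 1.09 in PCs. It changed by -1.40 ± 0.16 in activated B cells (limma adjusted p = 6.9e-05) and by -5.42 ± 0.31 in PCs against naive B cells. Bach2 ranged from 43.8 to 51.8 TPM in naive B cells, 26.4 to 32.8 in activated B cells and 0.672 to 2.5 in PCs. The ratio of Prdm1 to Bcl6 within a library was 0.0443, 0.0558 and 0.0647 in naive B cells and 0.177, 0.268 and 0.388 in activated B cells, and the groups did not overlap. This difference of 2.29 on the log2 scale had an exact two-sided permutation p of 0.1, the smallest that 3 against 3 libraries allow (0.113 after Benjamini-Hochberg adjustment over 18 ratio tests).

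Blimp1 silences its targets by recruiting corepressors. Of 10 corepressor genes tested, 4 fell in PCs against naive B cells, where 26.3% of all tested genes fell (7 of 10 with the Ig genes kept, where 7943 of all 12324 genes fell, 2 under median-of-ratios scaling or quantile normalization, where Ezh2 was called higher, and 3 without PC replicate 3). Hdac1, a histone deacetylase shared with NuRD and the most abundant of them, was at 209, 212 and 237 TPM in naive B cells, 236, 207 and 241 in activated B cells and 62.8, 72 and 55.5 in PCs. Tle3, a Groucho corepressor, had a log2 change of -2.60 in the same comparison. Ezh2, the H3K27 methyltransferase, rose by 1.77 ± 0.16 in activated B cells, from 18.4, 17.5 and 26.1 TPM to 77.2, 70.2 and 65.6 TPM, and was at 30.1, 33.9 and 28.6 TPM in PCs.

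**Figure D3:**
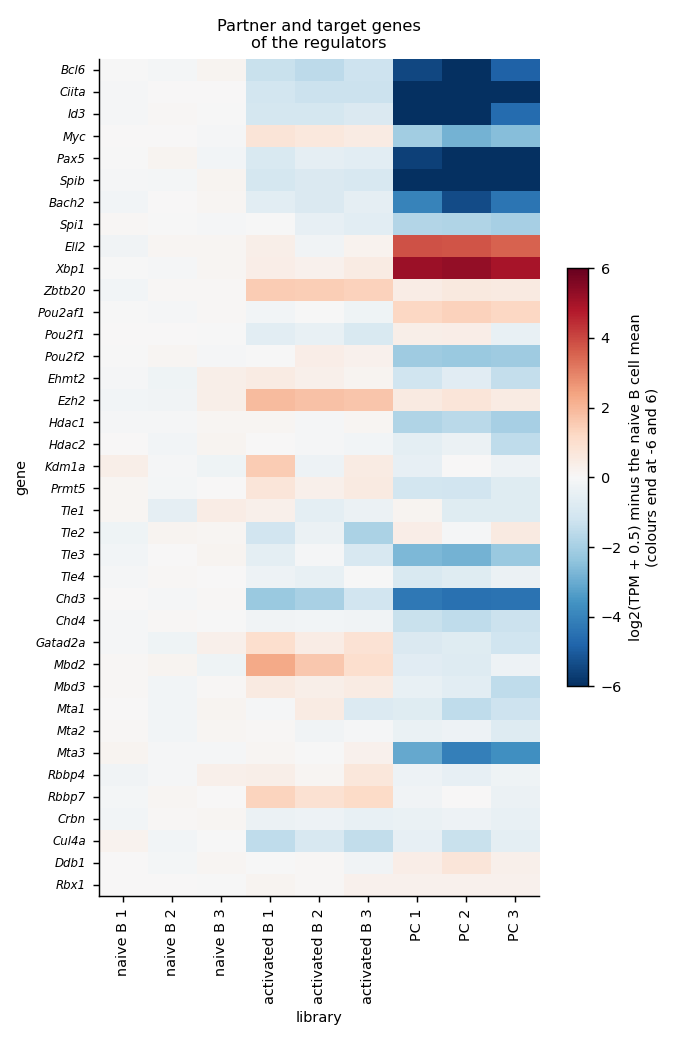
log2(TPM + 0.5) minus the mean of naive B cells for partner and target genes of the regulators (rows) in each library (columns); red is higher and blue lower, and colors end at -6 and 6. Pax5, Ciita, Spib, Id3, Bcl6 and Bach2 are blue in all 3 PC libraries, and Xbp1 and Ell2 are red there.

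Irf4, on chromosome 13 from 30749226 to 30766976 (plus strand), was lowest in activated B cells. Its TPM values were 22.8, 24.1 and 28.5 in naive B cells, 7.12, 14.0 and 12.2 in activated B cells and 114, 134 and 88.8 in PCs. The 3 groups did not overlap. Irf4 fell by 1.20 ± 0.27 on the log2 scale in activated B cells (limma adjusted p = 0.00555) and rose in PCs by 2.12 ± 0.21 over naive B cells (7.0e-06) and by 3.31 ± 0.25 over activated B cells (1.0e-06). The fall in activated B cells rested on replicate 1 for its size: without that library it was -0.92 (limma adjusted p = 0.0221), short of 2-fold. With the Ig genes kept in the scaling, the rise over naive B cells was 0.91, also short of 2-fold.

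Of the 9 IRF genes tested, 5 fell in PCs against naive B cells, beside 26.3% of all tested genes, and only Irf4 rose. This count of falls was 3 under median-of-ratios scaling, 5 under quantile normalization and 7 with the Ig genes kept. Against activated B cells 2 fell, beside 22.3% of all tested genes, and 2 rose, among them Irf4. With the Ig genes kept 6 fell there, as did 7355 of all 12324 tested genes. Irf4 took up a larger share of its family in PCs. It made up 1.97%, 2.18% and 2.46% of the summed TPM of 9 IRF genes in naive B cells, 0.841%, 1.94% and 1.58% in activated B cells and 36.6%, 41.4% and 35.0% in PCs. The family sum was 1141 ± 33.6 TPM (SD) in naive B cells, 780.3 ± 62.9 in activated B cells and 296.6 ± 37.4 in PCs. Irf8, whose product shares Ets partners with IRF4, went from 509, 460 and 468 TPM to 417, 350 and 359 TPM and to 23.3, 11.1 and 13.2 TPM. The ratio of Irf4 to Irf8 was 0.0448, 0.0523 and 0.0610 in naive B cells, 0.0171, 0.0400 and 0.0340 in activated B cells and 4.92, 12.1 and 6.72 in PCs, with no overlap between groups (exact permutation p = 0.1 in each comparison, 0.113 adjusted over 18). Of the 9 IRF genes, 4 fell in activated B cells (3 under median-of-ratios scaling and 5 under quantile normalization), where 10.4% of all tested genes fell. Irf1, an interferon-induced activator, fell by 1.35 in activated B cells, from 147, 154 and 160 TPM to 54.0, 54.2 and 75.2 TPM.

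The Ets partners of IRF4 fell in PCs. Spib was at 382, 366 and 443 TPM in naive B cells, 191, 217 and 204 in activated B cells and 1.06, 1.00 and 1.38 in PCs, a log2 change of -7.92 ± 0.25 against naive B cells (limma adjusted p = 1.4e-09). Spi1, which encodes PU.1, was at 205, 195 and 189 TPM, 194, 138 and 127 TPM and 57.4, 55.6 and 49.5 TPM. Among genes known to depend on Blimp1 or IRF4 in PCs, Xbp1, the secretory factor of the unfolded protein response, went from 118, 111 and 127 TPM in naive B cells to 4240, 4564 and 3717 TPM in PCs, and Ell2, an elongation factor for secretory Ig mRNA, from 9.58, 11.8 and 11.9 TPM to 162, 158 and 134 TPM. Zbtb20, an IRF4 target, instead rose in activated B cells by 1.45 ± 0.10 (153, 150 and 137 TPM) and was at 72.9, 79.9 and 77.5 TPM in PCs. The octamer coactivator Pou2af1 rose by 1.27 ± 0.09 in PCs over naive B cells and Pou2f2, the octamer factor it serves, fell by 2.16 ± 0.16. The Pou2af1 rise was 0.98 under quantile normalization and 0.05 with the Ig genes kept, below 2-fold in both.

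Batf, on chromosome 12 from 85686669 to 85709087 (plus strand), encodes an AP-1 factor that pairs with JUN proteins and IRF4 and is needed for class switching. It was at 34.7, 28.9 and 30.0 TPM in naive B cells, 71.9, 87.8 and 75.5 in activated B cells and 11.6, 12.2 and 19.6 in PCs. All activated B cell libraries were above all naive libraries, and all PC libraries were below both. Batf rose by 1.31 ± 0.16 in activated B cells (limma adjusted p = 0.000132) and fell in PCs by 2.43 ± 0.19 against activated B cells (1.3e-06) and by 1.12 ± 0.20 against naive B cells (0.000593). The fall against naive B cells dropped below 2-fold under median-of-ratios scaling (-0.63), under quantile normalization (-0.64) and without PC replicate 1 (-0.99), and was -1.36 without PC replicate 3.

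Of the other AP-1 genes, Jund was called in the same directions as Batf in activated B cells, and Jun, Fos and Junb were not. Batf made up 8.7%, 8.1% and 7.97% of the summed TPM of 10 AP-1 genes in naive B cells, 15.4%, 32.1% and 18.0% in activated B cells and 1.12%, 1.24% and 2.03% in PCs. Jun fell by 1.42 ± 0.17 in activated B cells, from 33.9, 30.7 and 38.4 TPM to 13.6, 11.3 and 12.7 TPM, and was at 264, 247 and 213 TPM in PCs. Fos was at 35.0, 28.5 and 35.8 TPM in naive B cells, 43.8, 34.9 and 40.9 in activated B cells and 671, 654 and 645 in PCs, and so held 64.8% to 66.8% of the AP-1 sum in PCs. Junb, the most abundant in naive B cells at 277, 254 and 253 TPM, was at 65.5, 58.4 and 64.9 TPM in PCs. Jund rose by 2.58 ± 0.61 in activated B cells and fell by 2.57 ± 0.61 from there to PCs (limma adjusted p = 0.0043), but its activated B cell libraries spread widely, at 171, 33.2 and 143 TPM.

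**Figure D4:**
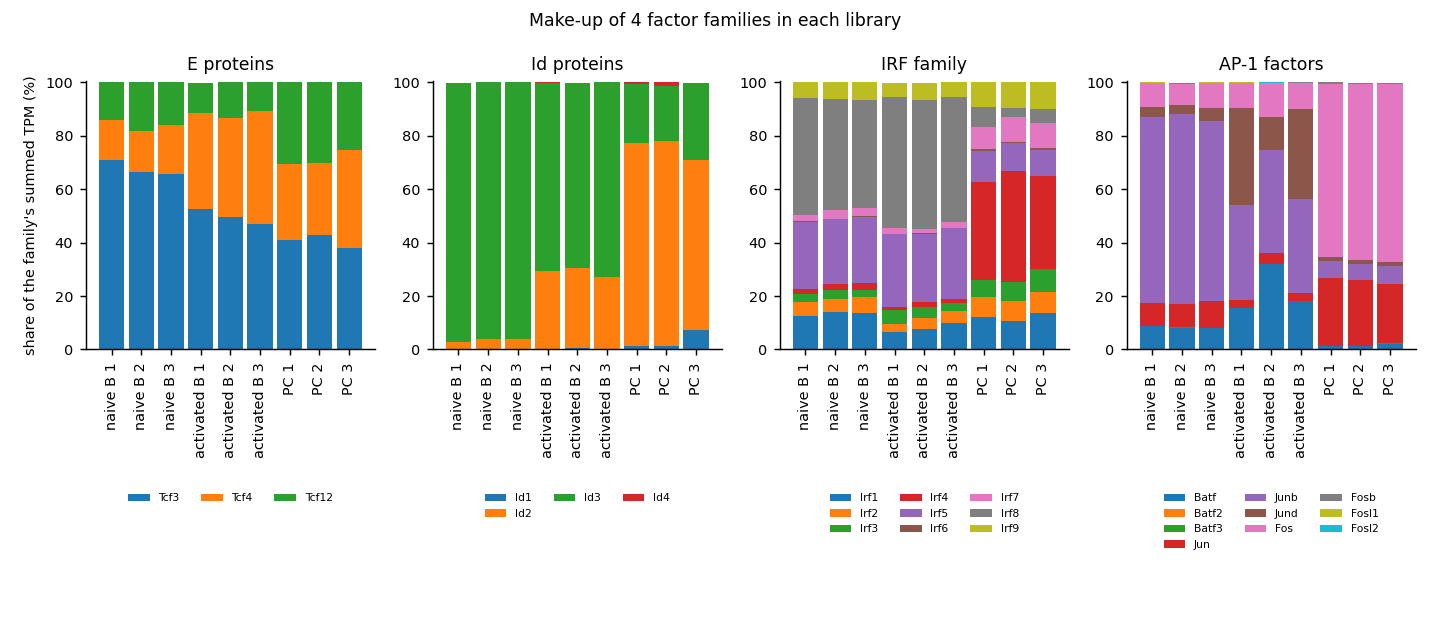
Share of the summed TPM (%) that each gene takes within its family in each library, for E proteins, Id proteins, IRF genes and AP-1 genes. Tcf4 and Id2 take larger shares in both NP-binding groups than in naive B cells, and Irf4 and Fos take their largest shares in the 3 PC libraries.

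Ikzf1, on chromosome 11 from 11685003 to 11772926 (plus strand), was at 99.1, 103 and 104 TPM in naive B cells, 99.5, 99.8 and 86.9 in activated B cells and 41.5, 48.0 and 27.7 in PCs. The PC libraries lay below all B cell libraries, and the B cell groups overlapped. Ikzf1 fell in PCs, by 1.42 ± 0.17 (limma adjusted p = 2.9e-05) from naive B cells and by 1.31 ± 0.17 (6.7e-05) from activated B cells. Between the B cell groups the change was -0.11 with a 95% interval from -0.44 to 0.22. Median-of-ratios scaling left the falls at -0.92 and -0.93, both with adjusted p under 0.05 but short of 2-fold, and quantile normalization left the second at -0.92.

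Ikzf3, on chromosome 11 from 98464902 to 98546031 (minus strand), changed by less than Ikzf1 in PCs. It was at 131, 117 and 150 TPM in naive B cells, 132, 139 and 143 in activated B cells and 95, 115 and 87.3 in PCs. The PC values were below the others without overlap, but by a log2 change of -0.42 ± 0.13 against naive B cells (95% interval -0.71 to -0.14) and -0.48 ± 0.13 against activated B cells, so neither passed 2-fold. The first of these was near the median of all tested genes, and under median-of-ratios scaling it was 0.07. With the Ig genes kept the changes were -1.63 and -1.67, and both were called lower. The ratio of Ikzf3 to Ikzf1 in the same library, which a factor per library does not change, was 1.32, 1.13 and 1.44 in naive B cells, 1.32, 1.39 and 1.65 in activated B cells and 2.29, 2.40 and 3.15 in PCs. PCs were 2.0-fold above naive B cells in this ratio with no overlap (exact permutation p = 0.1, the smallest possible).

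Ikaros and Aiolos act through NuRD. Of 12 subunits tested, 5 fell in PCs against naive B cells and 8 against activated B cells, beside 26.3% and 22.3% of all tested genes. These counts were 3 and 5 under median-of-ratios scaling, 3 and 6 under quantile normalization, 12 and 12 with the Ig genes kept, where 7943 and 7355 of all 12324 tested genes were also lower, and 4 and 7 without PC replicate 3. Chd3 (Mi-2α) was at 28.5, 26.4 and 29.6 TPM in naive B cells, 5.66, 6.97 and 12.3 in activated B cells and 0.971, 0.775 and 0.818 in PCs, and Mta3 was at 52.0, 43.6 and 44.4 TPM, 51.1, 45.4 and 56.1 TPM and 5.15, 2.20 and 3.20 TPM. Rbbp7 and Mbd2 rose in activated B cells, by 1.12 ± 0.13 and 1.62 ± 0.31, of which Rbbp7 was short of 2-fold (0.96) under quantile normalization. Of the 4 subunits of the cereblon ligase, which degrades Ikaros and Aiolos when drugs of the thalidomide class are bound, Cul4a fell by 1.34 ± 0.23 in activated B cells, where 10.4% of all tested genes fell, and none was called in PCs in the main analysis (2 were lower in each PC comparison with the Ig genes kept, as were most of all tested genes).

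Tcf3, on chromosome 10 from 80409514 to 80433647 (minus strand), was at 159, 139 and 152 TPM in naive B cells, 126, 108 and 92.9 in activated B cells and 86, 96.5 and 68.1 in PCs. Naive libraries were above all others, and the activated B cell and PC libraries overlapped. The log2 changes against naive B cells were -0.48 ± 0.14 in activated B cells (limma adjusted p = 0.0210) and -0.86 ± 0.15 in PCs (0.000454), both short of 2-fold. Between PCs and activated B cells the change of -0.38 had a 95% interval from -0.71 to -0.05 and an adjusted p of 0.0527, and it was 0.00 under median-of-ratios scaling. With the Ig genes kept Tcf3 was called lower in PCs in both comparisons, at -2.06 and -1.57.

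Tcf4, on chromosome 18 from 69343356 to 69689079 (plus strand), went the other way. It was at 33.5, 31.8 and 42.3 TPM in naive B cells, 86.8, 80.0 and 83.4 in activated B cells and 59.9, 61.1 and 65.7 in PCs, and the 3 groups did not overlap. Tcf4 rose by 1.21 ± 0.12 in activated B cells (limma adjusted p = 3.6e-05). In PCs it was 0.79 ± 0.13 above naive B cells (0.000272) and 0.42 ± 0.11 below activated B cells (0.00956) on the log2 scale, neither of which passed 2-fold. The difference from naive B cells was 1.28 under median-of-ratios scaling and 1.12 under quantile normalization, and it was -0.41 with the Ig genes kept, where the change against activated B cells was -1.60 and called lower. The ratio of Tcf4 to Tcf3 within a library was 0.211, 0.229 and 0.278 in naive B cells, 0.690, 0.744 and 0.898 in activated B cells and 0.697, 0.633 and 0.964 in PCs. Both NP-binding groups were above naive B cells, by 3.25-fold and 3.16-fold, and did not differ from each other beyond their spread (exact permutation p = 0.9).

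The make-up of the E protein transcripts differed from naive B cells in both other groups. Without the Ig genes, Tcf3, Tcf4 and Tcf12 together had 221.2 ± 11.6 TPM (SD) in naive B cells, 217.8 ± 21.3 in activated B cells and 205.2 ± 23.6 in PCs. Tcf12 (HEB) was at 31.5, 37.9 and 37.2 TPM, 26.9, 28.9 and 20.8 TPM and 64.5, 68.1 and 45.6 TPM, and rose by 1.19 ± 0.19 in PCs over activated B cells (limma adjusted p = 0.00028). With the Ig genes kept this change was 0.01, and Tcf3 was at 148, 130 and 142 TPM in naive B cells and 25.6, 26.8 and 20.5 in PCs, so the sums in PCs depend on the table used. Tcf3 went from 65.7% to 70.9% of the E protein sum in naive B cells to 47.1% to 52.5% in activated B cells and 38.0% to 42.7% in PCs.

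Id2, on chromosome 12 from 25093799 to 25097140 (minus strand), was high in activated B cells. It was at 7.63, 11.1 and 10.7 TPM in naive B cells, 54.4, 57.2 and 54.7 in activated B cells and 3.29, 3.87 and 23.7 in PCs. The activated B cell libraries lay above all others, and the PC libraries lay on both sides of the naive range because of replicate 3. Id2 rose by 2.45 ± 0.43 in activated B cells (limma adjusted p = 0.00121) and fell by 2.92 ± 0.46 from activated B cells to PCs (0.000279). Against naive B cells the PC change was -0.47 ± 0.54 (95% interval -1.66 to 0.71, adjusted p = 0.462). Without PC replicate 3, the library with liver transcripts, the same change was -1.33 (adjusted p = 0.00128) and the change against activated B cells was -3.77, and without PC replicate 1 the change against naive B cells was 0.00. With the Ig genes kept it was -1.43 and called lower. At the lowest, Id2 rested on 67 estimated reads in a library.

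Cells other than B cells express Id2 and Batf as well, so their markers are given beside these genes. In activated B cells 6 dendritic cell markers summed to 22.2 to 24.5 TPM against 7.71 to 8.18 in naive B cells, of which Flt3 took 15.8 to 19.4 TPM, while Itgax and Clec9a stayed at or below 1.16 TPM. Macrophage markers summed to 12.9 to 23.3 TPM against 3.39 to 5.84, of which Itgam took 12.3 to 16.0 TPM. Csf1r was at most 1.54 TPM and Fcgr1 at most 0.0128 TPM. Lyz2 was at 0.886, 5.51 and 0.0305 TPM in activated B cells, against 1.73, 0.668 and 0.840 in naive B cells. Cd14 was at 1.11, 0.208 and 0 TPM against 0.972, 0.0531 and 0.0626. T cell markers summed to 24.3 to 58.4 TPM against 56.1 to 64.2, nearly all of it Lck, with Cd3e at 0, 0.129 and 1.15 TPM and Thy1 at 0. Markers of NK and innate lymphoid cells summed to 3.60 to 3.96 TPM against 4.86 to 5.55. In PC replicate 3 the macrophage marker Lyz2 was at 48.2 TPM, against 2.85 and 11.6 TPM in the other PC libraries. The part of these cells in the Id2 and Batf levels was not tested.

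Id3, the other abundant Id gene and a known Blimp1 target, ran opposite to Id2 in activated B cells. Its log2 change against naive B cells was -0.99 ± 0.22 there (limma adjusted p = 0.00533), short of 2-fold. Id3 was at 261, 289 and 265 TPM in naive B cells, 132, 131 and 148 in activated B cells and 0.956, 1.04 and 10.7 in PCs, where replicate 3 was again the highest. The ratio of Id2 to Id3 was 0.0293, 0.0384 and 0.0406 in naive B cells, 0.411, 0.436 and 0.370 in activated B cells and 3.44, 3.71 and 2.21 in PCs, with no overlap in any comparison. The 4 Id genes together had 268.5, 300.8 and 275.5 TPM in naive B cells, 187.6, 189.0 and 202.6 in activated B cells and 4.34, 5.05 and 37.1 in PCs. Set against the E protein sum in the same library, this was a ratio of 1.20, 1.44 and 1.19, then 0.783, 0.873 and 1.03, then 0.0206, 0.0224 and 0.207. Id transcripts per E protein transcript in PCs were 27.9-fold below those of naive B cells as a geometric mean, a log2 difference of -4.80 that was -5.89 without PC replicate 3 (exact permutation p = 0.1 with all 3 libraries).

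Between genes, TPM corrects for length and allows levels to be set side by side. In naive B cells the order of mean TPM was Tcf3 (149.8 ± 10 SD), Ikzf3 (132.6 ± 16.5), Ikzf1 (102.1 ± 2.67), Tcf4 (35.9 ± 5.64), Batf (31.2 ± 3.11), Irf4 (25.1 ± 3.01), Id2 (9.83 ± 1.91) and Prdm1 (2.501 ± 0.659). Libraries of Tcf3 and Ikzf3 overlapped, though Tcf3 was the higher within each naive library. Those of Tcf4 and Batf overlapped as well. In activated B cells Ikzf3 led with 137.9 ± 5.76, before Tcf3 (108.8 ± 16.55) and Ikzf1 (95.39 ± 7.4), whose libraries overlapped. Tcf4, Batf and Id2 followed with 83.4 ± 3.42, 78.4 ± 8.30 and 55.4 ± 1.52. Batf libraries overlapped with those of Tcf4 and Ikzf1. In PCs Irf4 (112.3 ± 22.6), Ikzf3 (99.2 ± 14.5), Prdm1 (98.2 ± 19.0) and Tcf3 (83.5 ± 14.3) overlapped with their neighbors in the order. Within each PC library Irf4 was the highest of these 4 and Tcf3 the lowest. Ikzf3 and Prdm1 changed order between libraries and were not separated.

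Over the 9 libraries, on the log2 scale, Irf4 and Batf ran opposite to each other (Pearson r = -0.947), Id2 and Batf ran together (0.893) and Ikzf1 and Ikzf3 ran together (0.894). These correlations are descriptions over 9 libraries of 3 groups, so they mainly reflect 3 group means. The tested genes most like Prdm1 over the same libraries were Tmem167 and Pdia6 (r of 0.9963 and 0.9961) and those most like Irf4 were Hyou1, Spint2 and Wfs1 (0.9942 to 0.9975). Those most like Ikzf1 were Dcaf8, Syk and Themis2 (0.9929 to 0.9942), most like Ikzf3 Phtf2, Aars2 and Pik3r5 (0.9633 to 0.9674), and most like Tcf3 Pgs1, Pknox1 and Ell (0.9848 to 0.9882). Tcf4 was most like Gstt3, Rnaseh2b and Mms22l (0.9876 to 0.9919), Id2 like Ifih1, Sema7a and Vash2 (0.975 to 0.9776), and Batf like Rsu1, I830077J02Rik and Pnp2 (0.9876 to 0.9899).

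**Figure D5:**
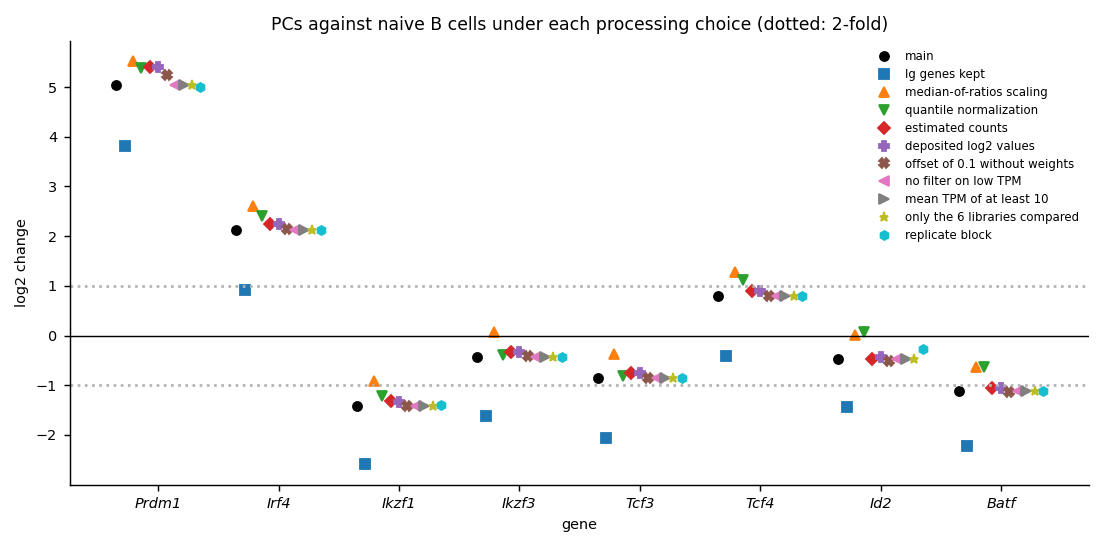
Log2 change of each regulator in PCs against naive B cells under the main analysis (black) and 10 other processing choices; dotted lines mark 2-fold. Keeping the Ig genes lowered every regulator and median-of-ratios scaling raised every one.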

How the data were processed

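The authors pseudoaligned reads with kallisto and deposited TPM values per gene and log2 values from voom, each for a table with and a table without Ig genes. The submitters' processing notes name mm10, and the transcript annotation is not given in the sources used here. The main analysis followed the study's stated design: limma (version 3.58.1 in R 4.3.3) with voom on the deposited TPM of the Ig-free table, scaled to the column sum with an offset of 0.5. The 9 libraries entered 1 model with a mean per group, without a block. The paper describes both NP-binding populations as sorted from 3 individuals, but which libraries share a mouse is not stated. A gene was tested where 3 or more libraries reached a TPM of 1, p was adjusted by Benjamini-Hochberg over all of them, and a call needed an adjusted p under 0.05 and a fold change over 2. Fold changes on this offset scale understate changes of low genes. TPM is relative, so a few abundant transcripts lower all others. Estimated reads were recovered from the deposited log2 values, in which genes at 0 share 1 value per library that stands for 0.5 counts, and the number of reads behind a gene sets its precision. Ratios of TPM within a library were compared by exact two-sided permutation tests that treated the libraries as unpaired. Batf to Batf3 was left out because Batf3 was at 0 in 1 library. Genes named were the 8 regulators, partner genes that were called, used in a ratio or most abundant in their list, and up to 3 genes most like each regulator. Promoter windows came from RefSeq (GRCm38.p6), gene positions from GENCODE vM21, and figures from matplotlib 3.10.9. Some genes are not reported here; they stayed in the fit but were left out of the lists, the marker sums and the genes most like a regulator. The fit was also run on simulated data in which equal numbers of genes were raised and lowered. That run does not bear on the choice of scaling. The regulators and the lists were chosen with earlier results of these data known. Alternatives were the scaling, the filter, the offset, the input values, the libraries fitted, a replicate block and each library left out.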

Additional observations from a re-analysis of the deposited data

How the results depend on the processing

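Of the 24 regulator changes (8 genes in 3 comparisons), 10 kept their direction and their side of the thresholds under all 19 alternatives. Against naive B cells, the number of regulators lower in PCs was 5 with the Ig genes kept, 0 under median-of-ratios scaling and 1 under quantile normalization, and ranged from 1 to 3 when 1 library was left out. The number higher was 1 with the Ig genes kept and 3 under both median-of-ratios scaling and quantile normalization, beside 2 in the main analysis. Against activated B cells, 6 were lower with the Ig genes kept and 2 under both of the other scalings, beside 3. In activated B cells against naive B cells the number lower ranged from 0 to 1 when 1 library was left out, with 0 without activated B cell replicate 1. Changes that reversed sign were near 0 or not past both thresholds: under median-of-ratios scaling Ikzf1 in activated B cells (0.0017), Ikzf3 (0.067) and Id2 (0.012) in PCs against naive B cells, and Tcf3 in PCs against activated B cells (0.0014); under quantile normalization Ikzf3 in activated B cells (-0.20) and Id2 in PCs against naive B cells (0.078); and with the Ig genes kept Tcf4 in PCs against naive B cells (-0.41). Leaving out a library reversed Ikzf3 in activated B cells (-0.033 to 0.146, lowest without naive replicate 2) and Id2 in PCs against naive B cells (-1.33 to 0.0025, highest without PC replicate 1), and the log2 difference in the Tcf4 to Tcf3 ratio between PCs and activated B cells ranged from -0.217 to 0.086 (0.017 without PC replicate 1, 0.086 without PC replicate 2, 0.071 without activated B cell replicate 3). Over all genes, PCs against naive B cells had 1473 higher and 3397 lower calls, 2349 and 1814 under median-of-ratios scaling, 2063 and 2047 under quantile normalization, and 551 and 7943 with the Ig genes kept. The setting with the Ig genes kept used another deposited table and tested 12324 genes instead of 12892. Same-numbered libraries did not deviate together (9 correlations from -0.0749 to 0.0675), and with the replicate block the counts of regulators called stayed at 3 and 1, 2 and 2, and 2 and 3. Depth limits Id2, Batf and Prdm1 most, which rested on 67, 162 and 216 estimated reads at the lowest.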
